A study of Homo sapiens with 3 samples.

Results

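The genes described here are the 10 that encode the core enzymes and cofactors of DNA methylation and its removal: DNMT1, DNMT3A, DNMT3B, DNMT3L, UHRF1, UHRF2, TET1, TET2, TET3 and TDG. They were chosen by name, and all rows of 2 EP300 peak tables that carried one of these names were taken. These made up 35 of 65276 peaks in replicate 1 and 33 of 64896 peaks in replicate 2, after the rows of peaks with several summits were joined. EP300 is a histone acetyltransferase and transcriptional coactivator, and its binding was mapped by chromatin immunoprecipitation and sequencing (ChIP-seq). The cells were wild-type H9, an established human embryonic stem cell line, held in the naive state. Per the labels, the PXGL medium was N2B27 with PD0325901 (a MEK inhibitor), XAV939 (a tankyrase inhibitor), Gö6983 (a protein kinase C inhibitor) and human LIF at 10 ng/mL, over a layer of mouse embryonic fibroblasts. There were 2 EP300 samples, both of this 1 group, and 1 input sample without antibody, which had no table of its own. The labels do not say whether these 2 samples are separate cultures, and their spread may thus be technical only. They also share the 1 input sample.

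DNA methylation at CpG sites is copied after replication by DNMT1, which UHRF1 brings to newly replicated DNA. New methylation is laid down by DNMT3A and DNMT3B, helped by DNMT3L, which has no catalytic activity of its own. The TET enzymes oxidise methylated cytosine, and the glycosylase TDG removes the oxidised products for repair. Naive human embryonic stem cells are known for a genome that is far less methylated than that of primed cells, and DNMT3L is among the genes used to mark them. These tables hold EP300 peaks only, so neither methylation nor expression was measured here.

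A peak was taken as present in both samples where it overlapped a peak of the other sample by at least 1 bp, and overlapping peaks were merged into a region. The authors' annotation assigns each peak to 1 gene, and a promoter peak lies within 3 kb of the start site of that gene. All other peaks are called distal, including those in introns. Fold enrichment over input is the authors' own value for each peak (the signal column of their tables, read here as that quantity). Its percentile is its rank from the lowest among the joined peaks of the same table, as a percent of their number. Peaks of equal fold enrichment share their mean rank. The tables give no read counts, so the depth is not known. With 1 group of 2 samples there was no comparison between groups and no test was made. Promoter regions were also present at 7 of 7 naive markers, 6 of 6 shared pluripotency markers, 4 of 4 fibroblast markers and 3 of 4 trophectoderm markers (HAND1 had none). Promoter occupancy thus did not separate the labelled cell type from the others, and reads of the mouse feeder cells were not analysed here.

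All 10 genes had a promoter region in both replicates. Across all 19974 coding genes the share was 68.7% (Wilson 95% interval 68.1 to 69.4), so a promoter region was the common state and the count alone says little about these genes. Together the 10 genes held 27 regions, of which 17 were promoter regions and 10 were distal. Distal regions were found at 5 of the 10 genes (DNMT3A, DNMT3B, DNMT3L, TET1 and TET3), against 20.6% of coding genes with at least 1. That share covers coding genes with and without a promoter region and is not matched on gene length, so the 2 are not like for like. In replicate 1, 29 of the 35 peaks were also found in replicate 2 (82.9%), beside 74.5% of all peaks in that table. In replicate 2, 29 of the 33 peaks were also found in replicate 1 (87.9%), beside 73.9% of all its peaks. The peaks found in 1 replicate alone were weak, with fold enrichment from 2.66 to 4.12 in replicate 1 and from 3.02 to 4.87 in replicate 2. The strongest summits of replicates 1 and 2 were a median of 52 bp apart in the shared regions.

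**Figure D1:**
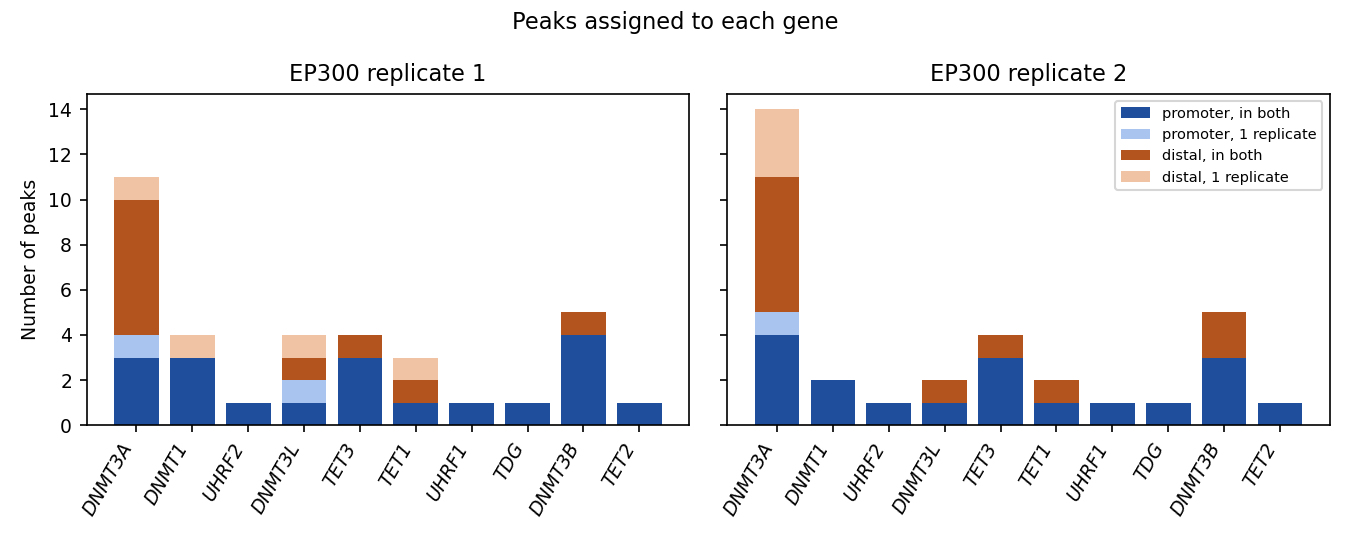
Number of joined EP300 peaks (vertical axis) assigned to each of the 10 genes (horizontal axis) in replicate 1 (left) and replicate 2 (right). Dark colours are peaks found in both replicates and light colours peaks found in 1, with promoter peaks in blue and distal peaks in brown. DNMT3A stands apart with 11 and 14 peaks, while UHRF1, UHRF2, TET2 and TDG have 1 each.

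Fold enrichment at the 17 promoter regions had medians of 8.50 (replicate 1) and 11.6 (replicate 2), beside 5.67 and 5.71 for all promoter peaks. The distal regions had medians of 5.24 and 4.45, beside 4 and 3.98 for all distal peaks. A region takes the strongest of its peaks and had to be found in both replicates, so these medians are not on quite the same footing. The strongest promoter peak of a gene was 1792 bp wide at the median in replicate 1 and 2186 bp in replicate 2. The medians were 1249 and 1292 bp for all coding genes with a promoter peak in that replicate, shared or not. The peak had more than 1 summit at 6 and 7 of the 10 genes, beside 32.8% and 31.6% of those coding genes.

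Promoter strength was graded over the 10 genes, and it is described here by a cut placed after the values were seen. At 7 genes (DNMT3A, UHRF2, DNMT1, DNMT3L, TET3, TET1 and UHRF1) the strongest promoter peak lay at percentile 81.5 or above in both replicates. At the other 3 (TDG, DNMT3B and TET2) it lay at percentile 74.5 or below in both. In replicate 1 the lowest of the 7, UHRF1, had fold enrichment 8.50, below the median of 8.88 for occupied coding genes. In replicate 2 UHRF1 had 11.6, above the median of 9.04. The median over the 10 genes, taking the lower percentile of the 2 replicates, was 88.2, and over all 13729 occupied coding promoters it was 80.0. Of the 10 genes, 7 lay above that median of 80.0. With the mean of the summits of each peak in place of the highest, the median over the 10 genes was 80.2. The median over occupied promoters was not recomputed for that setting, so no comparison can be made there. Mean fold enrichment of the strongest promoter peak ran from 20.6 ± 1.74 at DNMT3A to 5.63 ± 0.317 at TET2 (SD, n = 2). The strongest peak was not at the same region in both replicates at DNMT3A and DNMT3B, so their means are not of 1 site. DNMT3A ranked 416th of the 13729 occupied promoters by this lower percentile, and UHRF2 ranked 1092nd. Neighbours in this order often overlapped. DNMT3A (percentiles 98.7 and 99.2 in replicates 1 and 2) overlapped UHRF2 (96.6 and 98.9), and DNMT3L (89.5 and 94.1), TET3 (86.9 and 93.3) and TET1 (90.2 and 90) overlapped one another. TDG (69.2 and 73.8) lay above TET2 (62.4 and 66.4) in both replicates, while DNMT3B (74.5 and 63.4) overlapped each of them.

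**Figure D2:**
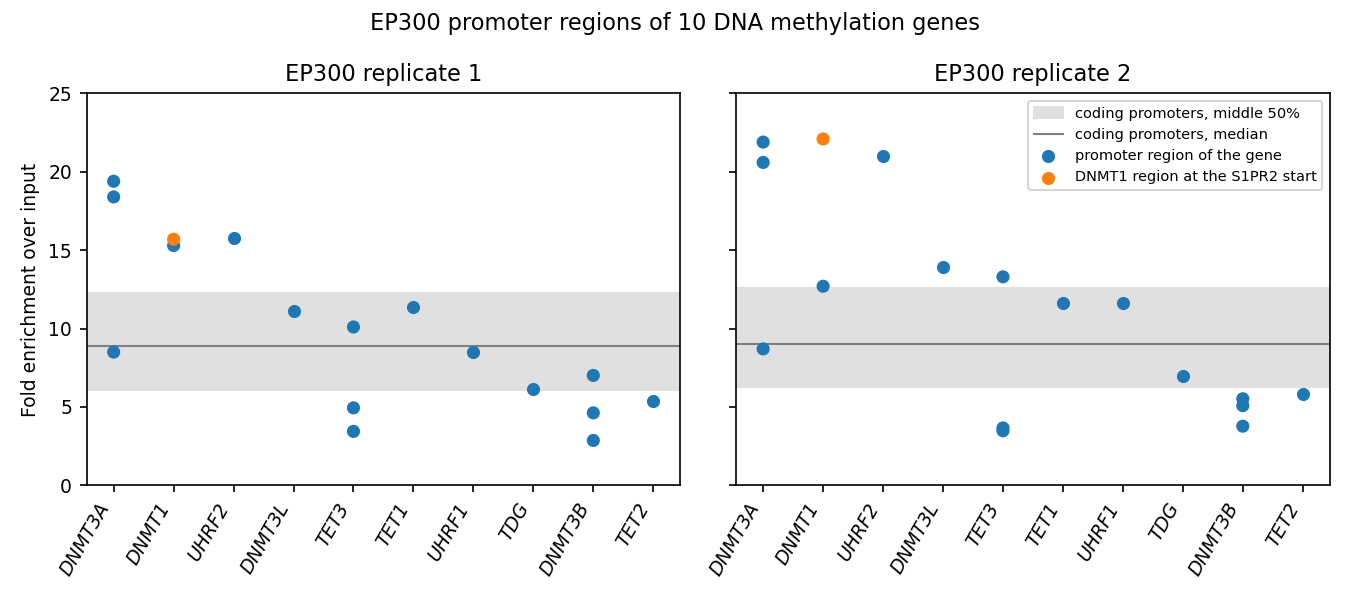
Fold enrichment over input (vertical axis) of every promoter region of the 10 genes (horizontal axis, ordered by the mean of their strongest regions) in EP300 replicate 1 (left) and replicate 2 (right). Grey bands and lines give the middle 50% and the median of the strongest promoter peak of all occupied coding genes, with medians of 8.88 and 9.04. Only TDG, DNMT3B and TET2 have no promoter region above that median in either replicate.

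The maintenance methyltransferase gene DNMT1 carried promoter regions at 2 places. The region at its RefSeq start (chr19:10193738-10196087, GRCh38) had fold enrichment 15.3 in replicate 1 and 12.7 in replicate 2, at percentiles 96.1 and 92.3. It covered the start site at 10194953, and its strongest summits lay 397 and 437 bp downstream of the start of the transcript the authors assigned. The other region (chr19:10230055-10232056) had fold enrichment 15.7 and 22.1. The authors assigned it to DNMT1 through a longer Ensembl transcript, ENST00000588952, which starts at 10231286. The RefSeq start of S1PR2, a sphingosine 1-phosphate receptor gene on the same strand, is at 10231331 and lies inside the same peak. EP300 at these start sites cannot be told apart, and without this region DNMT1 would rank by percentiles 96.1 and 92.3. One weak intron peak of the longer transcript, with fold enrichment 3.47, was found in replicate 1 alone.

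UHRF1, the partner of DNMT1 at replicated DNA, had 1 region (chr19:4908755-4911251) with fold enrichment 8.50 in replicate 1 and 11.6 in replicate 2. Its strongest summits lay 106 and 155 bp downstream of the assigned start, and a weaker summit followed at 834 and 856 bp with fold enrichment 5.05 and 5.32. All 3 RefSeq start sites of UHRF1 given in the promoter table lay inside this peak in both replicates. UHRF2, its paralogue, also had 1 region (chr9:6411437-6414252), but a stronger one, with fold enrichment 15.8 and 21.0. In both replicates the strongest UHRF2 summit lay upstream of the assigned start, at positions -518 and -554 bp relative to it. The summit nearer to the transcribed side, 486 and 492 bp downstream, reached 7.10 and 7.26. The UHRF2 region thus had its main summit on the upstream side and the UHRF1 region on the downstream side, in both replicates. Across the 10 genes, the strongest promoter summit lay downstream of the assigned start at 6 in replicate 1 and at 5 in replicate 2. The share was 73.7% in each replicate over all coding genes with a promoter peak there, shared or not. The summit lay over 500 bp upstream at 2 and 4 of the 10 genes, beside 10.0% and 10.2% of those coding genes.

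DNMT3A, one of the de novo methyltransferase genes, held the most EP300 peaks, 11 in replicate 1 and 14 in replicate 2. They formed 9 regions found in both, 3 of them at promoters and 6 distal. At least 6 distal regions were held by 257 of the 19974 coding genes (1.29%). That share is not matched on gene length, and DNMT3A is a long gene, at chr2:25227874-25342590. The region at its upstream starts (chr2:25339845-25343000), used for the long transcripts, had fold enrichment 8.50 in replicate 1 and 8.70 in replicate 2. Internal starts near 25252315, which give the shorter transcripts known as DNMT3A2, lay in a region (chr2:25250430-25253996) with fold enrichment 19.4 and 20.6. The internal region was thus stronger than the upstream one in both replicates. DNMT3A2 is known as the main DNMT3A form of embryonic stem cells in mouse, but which transcripts were made here was not measured. The 250 bases before an internal and an upstream start are shown because the peaks that cover these starts were so unequal in strength, with CpG dinucleotides in capitals, on the minus strand at chr2:25252316-25252565 and chr2:25342484-25342733 (RefSeq, GRCh38.p14).
DNMT3A internal start: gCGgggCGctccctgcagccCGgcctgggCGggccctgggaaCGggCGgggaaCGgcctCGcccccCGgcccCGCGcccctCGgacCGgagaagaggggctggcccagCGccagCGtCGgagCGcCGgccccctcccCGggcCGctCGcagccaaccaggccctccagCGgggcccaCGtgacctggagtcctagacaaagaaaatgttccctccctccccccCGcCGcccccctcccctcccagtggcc
DNMT3A upstream start: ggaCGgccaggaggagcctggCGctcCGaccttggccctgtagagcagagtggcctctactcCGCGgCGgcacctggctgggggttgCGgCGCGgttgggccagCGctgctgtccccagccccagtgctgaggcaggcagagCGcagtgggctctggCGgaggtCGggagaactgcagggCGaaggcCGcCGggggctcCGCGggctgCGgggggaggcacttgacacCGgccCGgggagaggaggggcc
The internal window holds 25 CpGs and 3 matches to the GC box GGGCGG on either strand, and the upstream window holds 21 CpGs and no such match. The other internal starts had windows with 15 CpGs and 3 matches (start 25252131) and with 22 CpGs and 2 (start 25252263). The other upstream starts had windows with 33 CpGs and 2 matches (start 25341925) and with 12 CpGs and none (start 25342590). The order by CpGs thus depends on which starts are taken. No summit lay within either printed window in either replicate, and the strongest summits of both regions lay downstream of these bases.

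A further strong DNMT3A region did not cover any of the 6 RefSeq starts in the promoter table. It lay at chr2:25274774-25278812, counted as a promoter region through the Ensembl transcript ENST00000682842, and reached fold enrichment 18.4 in replicate 1 and 21.9 in replicate 2. Its strongest summits lay upstream of that transcript's start, at -1593 and -1619 bp. The 6 distal regions lay in introns and were weaker, from 3.07 to 8.10 in replicate 1 and from 2.50 to 8.50 in replicate 2. The highest of them was at chr2:25258859-25259549, with fold enrichment 8.10 and 8.50. The lowest, at chr2:25265034-25265607, had 3.07 and 2.50, at percentiles 13.9 and 1.97.

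The name rule left out part of the EP300 binding in the DNMT3A gene. Another 4 regions found in both replicates lay inside the RefSeq extent of DNMT3A but were assigned to MIR1301, a microRNA gene that lies within that extent. By position, 13 regions therefore lay at DNMT3A. The strongest of the 4 (chr2:25311863-25316079) had fold enrichment 10.2 in replicate 1 and 12.7 in replicate 2, with 5 summits in each, and the authors' annotation places it in a 5' UTR. It was stronger than the region at the upstream DNMT3A starts in both replicates. The weakest of the 4 joined chr2:25328504-25328924 (replicate 1, fold enrichment 2.36) and chr2:25328896-25329336 (replicate 2, 3.25), peaks that overlapped only at their edges.

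**Figure D3:**
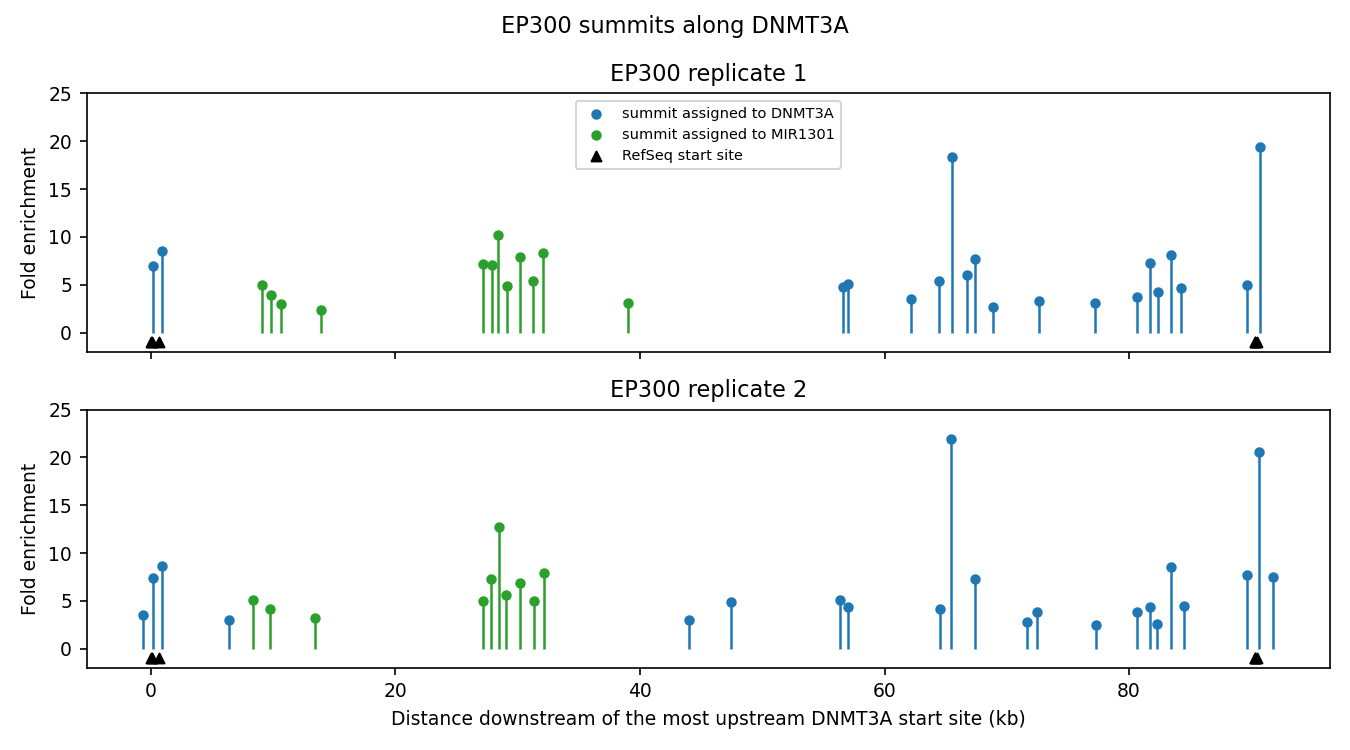
Fold enrichment (vertical axis) of each EP300 summit along DNMT3A, by distance downstream of its most upstream RefSeq start site (horizontal axis, kb), in replicate 1 (top) and replicate 2 (bottom). Blue summits were assigned to DNMT3A and green ones to MIR1301, and triangles mark RefSeq start sites. The tallest summits stand at the internal starts and at the intragenic site before them, not at the upstream starts.

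DNMT3B, the other de novo methyltransferase gene, had several promoter regions, none of which reached the median of the strongest peaks of occupied coding promoters (8.88 in replicate 1 and 9.04 in replicate 2). Its 3 promoter regions had fold enrichment 2.86, 7.01 and 4.62 in replicate 1, listed along the chromosome, and 5.52, 3.77 and 5.08 in replicate 2. The replicates thus disagreed on which of the 3 was strongest: the region at chr20:32761303-32762158 in replicate 1 and the one at chr20:32758059-32760228 in replicate 2. At a fold enrichment of at least 5 in both, DNMT3B was the 1 gene of the 10 left without a promoter region. A broad distal region of 5521 bp lay upstream (chr20:32752085-32757605), with fold enrichment 5.43 and 8.05 and 5 summits in each replicate. Part of it was assigned to ENSG00000285382 in 1 replicate. The RefSeq promoter table gives an internal DNMT3B start at 32779852, which lay 15953 and 15995 bp from the nearest peak in replicates 1 and 2. The 250 bases before it are shown as an example without EP300 (plus strand, chr20:32779602-32779851), again with CpGs in capitals.
DNMT3B internal start: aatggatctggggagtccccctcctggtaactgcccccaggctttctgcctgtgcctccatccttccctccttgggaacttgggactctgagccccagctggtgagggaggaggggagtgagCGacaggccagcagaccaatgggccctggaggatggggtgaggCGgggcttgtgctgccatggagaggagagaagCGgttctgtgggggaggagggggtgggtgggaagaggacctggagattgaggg
It holds 3 CpGs.

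DNMT3L, the cofactor gene and naive marker, had 1 promoter region (chr21:44262964-44264457) with fold enrichment 11.1 in replicate 1 and 13.9 in replicate 2. The peaks did not cover the assigned start. Their nearest edges were at -761 and -748 bp from it, and their strongest summits at -1252 and -1228 bp. A weak peak closer to the start, with fold enrichment 3.32, was found in replicate 1 alone. A distal region (chr21:44271671-44272946) reached 3.92 and 3.27. The strong EP300 site of DNMT3L was thus an upstream one in both replicates.

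Among the demethylation genes, TET1 had a promoter region (chr10:68560163-68562423) of fold enrichment 11.4 in replicate 1 and 11.6 in replicate 2, the smallest difference between replicates of the 10 genes. A second summit within it reached 8.38 and 8.42. An intron region just beyond 3 kb (chr10:68563426-68564190) had 6.71 and 5.11. The internal TET1 starts at 68600268 and 68600474, which give a shorter transcript, behaved differently. In replicate 1 both lay in a peak of fold enrichment 3.82 that the authors assigned to the pseudogene COX20P1, and in replicate 2 the nearest peak was 36078 bp away or more. The main start and the first internal start are shown because EP300 was found in both replicates at the main start and in 1 replicate at the internal one (plus strand, chr10:68560087-68560336 and chr10:68600018-68600267).
TET1 main start: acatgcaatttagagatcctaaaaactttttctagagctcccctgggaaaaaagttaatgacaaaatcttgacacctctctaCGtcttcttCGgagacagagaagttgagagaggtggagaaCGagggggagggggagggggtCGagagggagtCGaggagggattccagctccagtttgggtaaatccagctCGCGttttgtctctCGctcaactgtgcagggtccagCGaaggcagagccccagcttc
TET1 internal start: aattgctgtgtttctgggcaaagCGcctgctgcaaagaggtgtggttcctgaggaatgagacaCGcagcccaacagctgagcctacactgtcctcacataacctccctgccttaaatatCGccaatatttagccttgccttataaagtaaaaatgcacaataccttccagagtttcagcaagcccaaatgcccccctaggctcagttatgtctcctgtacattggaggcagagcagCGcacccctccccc
The main window holds 9 CpGs and the internal window 4, both below the median of the windows of these genes inside a peak in both replicates, given further on.

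TET3 had its strongest region at the upstream start (chr2:73983636-73986458), with fold enrichment 10.1 in replicate 1 and 13.3 in replicate 2. The strongest summits lay just upstream of that start, at -153 and -54 bp. A downstream start had weaker regions, at chr2:74002523-74003207 (4.94 and 3.48) and chr2:74003943-74004569 (3.44 and 3.66). A distal intron region at chr2:74025524-74026400 reached 5.61 and 4.42. The upstream start of TET3 was thus the stronger one in both replicates, the reverse of DNMT3A. Near the 3' part of the gene, regions assigned to the pseudogene FNBP1P1 (8.18 and 7.65) and to ENSG00000217702 (3.75 and 3.28) lay within its RefSeq extent. The window before the upstream TET3 start, with 37 CpGs, is the richest among the windows printed here (plus strand, chr2:73984660-73984909).
TET3 upstream start: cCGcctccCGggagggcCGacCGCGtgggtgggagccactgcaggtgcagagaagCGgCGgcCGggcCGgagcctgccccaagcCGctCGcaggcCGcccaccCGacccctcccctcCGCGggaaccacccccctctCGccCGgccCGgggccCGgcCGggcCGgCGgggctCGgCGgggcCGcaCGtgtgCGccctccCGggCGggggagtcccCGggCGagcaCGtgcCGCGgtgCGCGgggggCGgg

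TET2 had 1 EP300 region (chr4:105146002-105147143) and no distal peak in either replicate. Its fold enrichment was 5.40 in replicate 1 and 5.85 in replicate 2, the lowest of the TET genes. The peak covered the RefSeq start at 105146876, but not the one at 105145875, which lay 127 and 344 bp outside it. TDG, the glycosylase gene, likewise had 1 region (chr12:103965764-103966554) and no distal peak, with fold enrichment 6.14 and 6.96. Its summits lay 326 and 311 bp downstream of the assigned start. The RefSeq extent of UQCC6, a gene on the opposite strand, ends at 103965707, just outside this TDG region. By position the region cannot be given to TDG alone. The UQCC6 start in the promoter table, at 103957215, lay inside another peak in both replicates. By the lower percentile of both replicates, TET2 and TDG stood at the 22.8 and 30.5 percent rank of the occupied coding promoters.

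Start sites in the RefSeq promoter table allowed occupancy to be read without the authors' gene assignment. The table gave 20 start sites for 9 of the 10 genes, with none for DNMT3L, and several of one gene share sequence. DNMT3B is represented only by its internal start, and not by the start of its RefSeq extent at 32762385, where its promoter regions lay. In both replicates 15 of the 20 lay inside a peak, beside 57.3% of 22132 start sites of coding genes. The 15 had a median of 23 CpGs in the 250 bases upstream, from 9 at TET1 to 41 at UHRF1. The other 5 had 3 (DNMT3B), 10 (TET2), 4 and 11 (TET1) and 27 CpGs (TET3, whose start lay 5 bp outside the replicate 2 peak). Across coding genes the median was 22 CpGs at start sites inside a peak in both replicates and 4 at those inside a peak in neither. Few CpGs did not always go with a missing peak: the main TET1 start, with 9, lay inside a peak in both replicates.

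**Figure D4:**
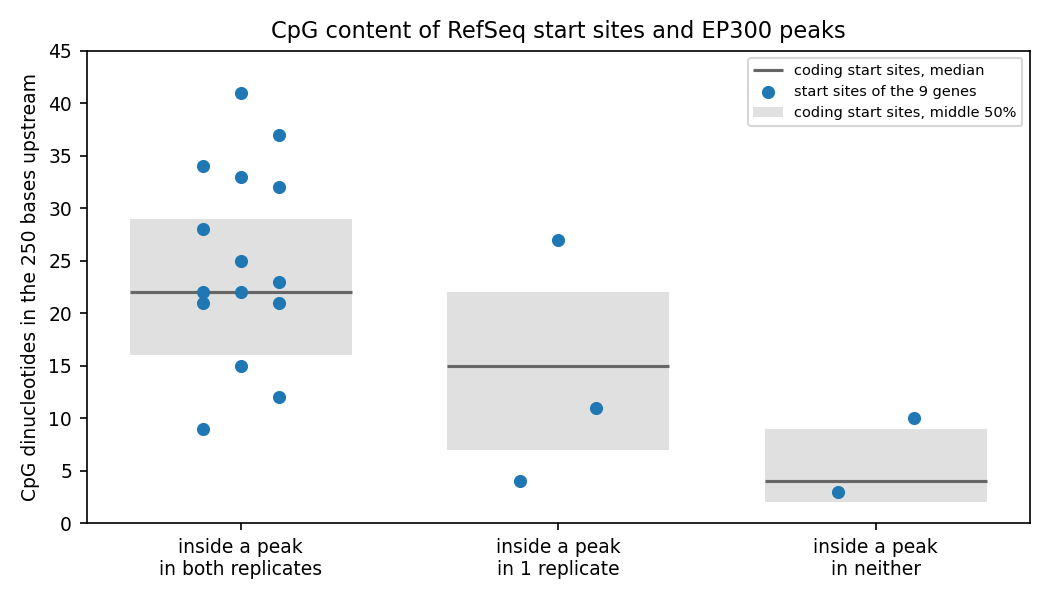
Number of CpG dinucleotides in the 250 bases upstream of RefSeq start sites (vertical axis) by whether the start lies inside an EP300 peak in both replicates, in 1 or in neither (horizontal axis). Points are the 20 start sites of the 9 genes, spread sideways for legibility. Grey bars and lines give the middle 50% and the median of coding start sites, with medians of 22, 15 and 4 CpGs.

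Short motifs were counted on both strands of the same windows, and matches of different motifs may overlap. The GC box GGGCGG, bound by SP and KLF factors, was found in 11 of the 20 windows. The share was 53.7% of all coding windows and 71.9% of those whose start lay inside a peak in both replicates. The 20 windows include 5 whose start did not, so the second share of each motif is not like for like. The TFAP2 motif GCCNNNGGC was found in 4, beside 23.4% and 30.8% in that order. The E-box CACGTG was found in 5, beside 7.37% and 8.90%. The E-box count covers DNMT3A, TDG, TET2 and TET3, and at DNMT3A overlapping windows share 1 match. The TET2 match was before the start at 105145875, which lay inside a peak in neither replicate. The TEAD motif GGAATG (10.5% of all windows), the E2F motif TTTCCCGC (1.73%) and the core of the NRF1 motif CATGCGC (4.54%) were each found in 1, at TET1, UHRF1 and DNMT1 in that order. The TEAD match was before the internal TET1 start at 68600268, inside a peak in replicate 1 alone, and not before the main start. No window held the ETS motif CCGGAAG (10.7%), the octamer ATGCAAAT (1.58%) or the CREB motif TGACGTCA (2.02%). UHRF2, with the strong upstream summit, has 23 CpGs and 2 GC boxes in its window (plus strand, chr9:6412949-6413198).
UHRF2 start: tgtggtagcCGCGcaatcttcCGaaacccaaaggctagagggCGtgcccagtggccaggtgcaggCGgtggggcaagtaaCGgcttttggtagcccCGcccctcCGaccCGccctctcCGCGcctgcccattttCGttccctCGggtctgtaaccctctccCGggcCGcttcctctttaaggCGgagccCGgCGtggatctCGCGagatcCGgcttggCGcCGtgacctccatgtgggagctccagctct
The main UHRF2 summit lies further upstream, outside these bases.

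Another 35 genes act beside these enzymes, and 32 of them (91.4%) had a promoter region in both replicates, beside the 68.7% of all coding genes, with a median percentile of 84.5. Readers of methylated DNA were occupied at 8 of 8. Among them ZBTB38, which encodes a zinc finger protein that binds methylated DNA, was the strongest, with fold enrichment 14.9 in replicate 1 and 16.3 in replicate 2, followed, by the lower percentile of both replicates, by MBD1, of the methyl-CpG binding domain family, with 11.4 and 11.2. MBD2, of the same family, was the weakest by the lower percentile, with 6.42 and 3.53, and it had 1 distal region.

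Regulators and recruiters of the machinery were occupied at 10 of 11. By the lower percentile of both replicates, CXXC5, a CXXC zinc finger gene, led with fold enrichment 16.5 in replicate 1 and 14.9 in replicate 2, and USP7, which encodes a deubiquitinase that binds DNMT1 and UHRF1, followed with 11.9 in each. That order does not hold in each replicate: CXXC4 had 16.2 in replicate 2, above CXXC5, and HELLS had 13.9 in replicate 1, above USP7. DPPA3, known to keep UHRF1 off chromatin, had a weak promoter region (3.56 and 3.14) and 3 distal regions, the most in its list. EHMT2, a histone methyltransferase gene, had no row in either table, but its RefSeq start lay inside a peak assigned to C2, with fold enrichment 9.31 and 10.5.

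Genes that repair modified bases were occupied at 9 of 10. LIG3, a DNA ligase gene, led with fold enrichment 16.5 in replicate 1 and 19.8 in replicate 2. XRCC1, a scaffold of single-strand break repair (12.8 and 14.2), and GADD45A (12.7 and 13.1) followed at the same lower percentile, 92.9. SMUG1, a uracil glycosylase gene, was the weakest (4.61 and 5.55), and GADD45G had 4 distal regions, the most of its list. The exception was APEX1, the apurinic endonuclease gene, whose start lay inside a peak assigned to its neighbour OSGEP (9.32 and 10.8).

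Genes for the methyl donor and for 2-oxoglutarate, the TET cosubstrate, were occupied at 5 of 6 and had no distal region. MAT2A, which makes S-adenosylmethionine, had fold enrichment 17.9 in replicate 1 and 15.4 in replicate 2, and IDH2, a source of 2-oxoglutarate in mitochondria, had 13.5 and 12.6. IDH1, its counterpart in the cytosol, was the weakest by the lower percentile, with 6.13 and 5.07, although MAT2B was lower in replicate 1, with 5.38 and 6.66.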

How the data were processed

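EP300 ChIP-seq peak tables of 2 EP300 samples of naive H9 cells were used, and the input sample has no table of its own. Per the labels' protocols, cells were crosslinked in 1% formaldehyde for 10 min, quenched in 0.125 M glycine for 5 min and sonicated. The submitters' processing notes name fastp 0.19.11 and the build GRCh38. The sources used here do not name the aligner, the peak caller or its threshold. The deposited tables are 1 per EP300 sample, name input in their peak names, and carry ChIPseeker annotation. Per the file headers, each row holds a signal value, read here as fold enrichment over input (a ratio), and -log10 values of the p-value and of the q-value. The deposited score column was not used. The largest deposited q was 0.0497 in replicate 1 and 0.0498 in replicate 2.

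Rows of equal interval were joined with Python 3.11.15 and pandas 2.3.3, keeping the highest fold enrichment and its summit, on chromosomes 1 to 22 and X. Regions joined overlapping peaks (1 bp) of both replicates. The region step was tested on simulated peak lists. Names were matched to 19974 RefSeq coding genes (GRCh38.p14) by symbol or a unique older symbol, and 15450 of 29712 names matched. Promoter sequences are RefSeq, read over 250 bases before each start. The NRF1 motif was searched by its core, a choice made after the data were seen. Intervals are Wilson 95% and cover counting error only. The 10 genes and all lists were chosen with earlier results of these data known. All 10 are named. Of each pathway list the genes named are those without a region, the 2 strongest and the weakest by the lower percentile, and the one with most distal regions. CXXC4, HELLS and MAT2B were chosen later, with their values known. Some genes that this rule names are not reported here.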

Additional observations from a re-analysis of the deposited data

How the results depend on the processing

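Each result was recomputed under other settings, and 28 of 36 values stayed within 1.5 times the count, or within the spread between replicates (2.46 percentile points) for the median percentile. Some of the 36 could hardly move by their construction, such as the number of regions, which does not depend on the promoter window. The number of the 10 genes with a promoter region was 9 to 10 under all settings run. It was 9 at a fold enrichment of at least 5, without DNMT3B, and 9 with a window of 3 kb around the RefSeq 5' end, without UHRF1, whose RefSeq extent begins further upstream than the starts in the promoter table. A fold enrichment of at least 5 left 16 of 27 regions and 4 of 10 distal ones. Counting every region within 100 kb of a RefSeq 5' end and nearest to it among the 10 genes, whatever its assigned gene, gave 78 regions, 66 of them distal. The median percentile of 88.2 moved to 75 at a fold enrichment of at least 5 and to 81.0 where -log10 q was 5 or more, in lists that no longer hold the weak peaks, and to 80.2 with the mean of the summits. The median of 80.0 over occupied coding promoters was not recomputed under these settings. Without replicate 1 or without replicate 2, the median percentile ranged from 88.2 to 91.7, the regions from 33 to 35, and the distal regions were 14 in each. Without either replicate in turn, 10 genes and 32 pathway genes had a promoter region. These counts could hardly fall, because the main call already asks for a region in both replicates. Leaving out the DNMT1 region at the S1PR2 start, an alternative chosen after seeing the data, gave 88.2. This median could not change, because DNMT1 at percentile 92.3 stays above DNMT3L (89.5) and TET3 (86.9), which set it. No paired analysis was possible because there is only 1 group of EP300 samples. Read depth, which sets how many weak peaks are called, is unknown.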
